A study of Mus musculus with 19 samples.

Results

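The comparison concerned γδ T cells sorted from the mouse thymus, with and without Rptor. It comprised the 6 arrays titled as γδ T cells among the 19 arrays of the series: 3 from Rptor-/- and 3 from wild-type (WT) C57BL/6 mice. In the Rptor-/- mice a Cre transgene of CD2-cre type had been crossed with a Raptorfl/fl allele, in which loxP sites flank part of Rptor. CD2-driven Cre is known to act in lymphocytes and not in the stroma of the thymus. The WT mice are labelled only as WT, and whether they carried the Cre transgene, the ages and the sexes are not given in the sources used here. No agent was given. The cells were sorted as lacking CD4, CD8, TCRβ, NK1.1 and Gr1, and the sorting protocol names no positive stain for the γδ receptor. Each array was hybridized with amplified cDNA from 12 ng of total RNA. Where other populations are set beside them, DN3a cells (3 Rptor-/- and 3 WT arrays) are double-negative thymocytes before the αβ and γδ branches part. ISP cells (3 Rptor-/- and 4 WT arrays) are CD8-positive, TCRβ-negative thymocytes of the αβ branch. Both came from the same 2 genotypes. Nothing in the labels ties a replicate to its own animal. The p-values therefore reflect the scatter among these arrays alone, and part or all of that scatter may be technical.

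Raptor, the product of Rptor, is the subunit that brings substrates to the kinase complex mTORC1, which couples nutrients, growth factors and antigen receptor signals to cell growth, protein and lipid synthesis and division. γδ T cells arise in the thymus from double-negative precursors when a γδ receptor signals strongly, and part of them acquire effector functions, with interferon γ or interleukin 17, before they leave. Several of these thymic subsets share receptors with natural killer cells, among them lectin-like receptors encoded in 1 gene cluster and the ITAM adaptors that carry their signals.

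Values are log2 expression as deposited, 1 probe set per gene, for 22180 genes. A difference is Rptor-/- minus WT on this log2 scale, so 1 is a doubling. Differences were tested with limma, and a gene was called when its p, adjusted over all 22180 genes by Benjamini and Hochberg, was under 0.05. Standard errors (SE) and adjusted p-values below are limma's. On that scale 618 genes were called, 2.79% of those tested. Of these, 397 were higher (1.79%) and 221 lower (0.996%) in Rptor-/- cells, and 44 (0.198%) differed by at least 2-fold, 39 higher and 5 lower. The shares of 1.79% and 0.996% are the background for the counts of called list members below. Whether called or not, 12.3% of all genes were higher and 8.79% lower without overlap between genotypes. For 3641 of the 22180 genes limma's unadjusted p was under 0.05, which is the background for counts of unadjusted p below. The median difference over all genes was 0.0042. The 6 arrays had medians of 6.04 to 6.09 and pairwise correlations of 0.990 to 0.996, and their number limited the precision. The first principal component, with 39.7% of the variance, separated the genotypes, and the second, with 19.7%, set Rptor-/- array 1 apart from the other 5. The count of calls moved by more than 1.5 times when single arrays were left out: it was 330 without Rptor-/- array 2 and 392, 274 and 342 without WT arrays 1, 2 and 3.

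The label was checked against marker genes. Sox13, a transcription factor gene of the γδ lineage, was at 10.49 to 11.06 on the γδ arrays and at 7.93 to 8.56 on the DN3a arrays. Ptcra, the pre-TCRα gene of the αβ branch, was at 6.26 to 6.97 on the γδ arrays and at 10.70 to 11.46 on the DN3a arrays. Cd3e was at 12.16 to 12.37, beside 12.36 to 12.65 on the DN3a arrays, so it does not set γδ cells apart. Il2ra and Dntt were at 9.05 to 9.53 and 9.34 to 10.07, against 12.53 to 12.93 and 11.88 to 12.08 on the DN3a arrays. Cd4 was at 6.17 to 6.59. Cd8b1 was at 8.81 in WT and 7.09 in Rptor-/- cells on average, against 6.51 to 7.87 on the DN3a arrays. Its WT mean thus lay above the DN3a range, although the cells were sorted as lacking CD8. The constant genes of the γ and δ receptor chains were not among the genes with 1 symbol and were not used here. Xist was at 11.94 to 12.26 and 3 Y-linked genes at 3.42 to 4.18 on all 6 arrays, so none of the 6 stood apart by sex.

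Rptor itself was at 9.48, 9.52 and 9.40 on the Rptor-/- arrays and at 9.79, 9.77 and 9.74 on the WT arrays. All 3 Rptor-/- values lay under all 3 WT values, yet the signal was still 81.2% of WT. The difference was -0.30 (SE 0.08) and missed the threshold (limma adjusted p = 0.0603). An exact two-sided permutation test gave p = 0.1, the smallest that 3 against 3 arrays allow. It passed the threshold with all 19 arrays in the fit (adjusted p = 0.0489), with dim genes left out (0.0225) and with trended, robust moderation (0.0139). Its single probe set could sit outside the floxed stretch, in which case the remaining signal is no measure of the deletion. In DN3a cells the same probe set differed by -0.58 and in ISP cells by -0.24.

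Klra5, which encodes the Ly49E receptor, was at 7.38, 8.07 and 7.80 in Rptor-/- cells and at 4.69, 4.78 and 4.36 in WT cells. It rose by 3.14 (SE 0.21, adjusted p = 1.66e-06), the largest difference of any called gene. Every Rptor-/- array lay far above every WT array, and the WT values were near the lower end of the scale. Klrd1, the gene of CD94, which pairs with NKG2 chains to bind nonclassical MHC, was at 7.96, 7.56 and 7.44 against 5.67, 5.56 and 5.43, a rise of 2.10 (SE 0.13). Klrh1, another lectin-like receptor gene of the cluster, was at 6.13, 6.03 and 5.70 against 4.11, 4.03 and 3.91, a difference of 1.94 (SE 0.13) that passed the test. Its WT values lay within the range of the Y-linked genes given above, so they are not shown to be above background and the size of the rise is uncertain. For both genes the spread within a genotype was small beside the distance between genotypes.

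These receptor genes lie in the natural killer gene complex on chromosome 6, and most of its measured genes were not called. Between Klrb1a and Klra1, 33 of 42 protein-coding genes were measured, taken in the order of the RefSeq annotation of GRCm38.p6. Of these, 4 rose (Clec2d, Klrd1, Klrh1 and Klra5) and 1 fell (Klrb1f), and the other 28 differed by -0.50 to 0.42 without passing the threshold. Clec2d, whose product is a ligand of an NKR-P1 receptor, was at 10.50, 10.46 and 10.26 against 9.68, 9.65 and 9.56. The 3 NKG2 genes that partner CD94 stayed low. Klrc1 was at 4.52 in Rptor-/- and 4.74 in WT cells on average, Klrc2 at 3.85 and 3.57, and Klrc3 at 3.56 and 3.28, none of them called. Klrk1, the NKG2D gene, was at 4.28 against 4.26. Klrc2, Klrc3, Klra6 and Klra9 had means within or under the range of the Y-linked genes, where a lack of change says little. Klrb1f fell by 0.87 (SE 0.21, adjusted p = 0.0409), with Rptor-/- values of 6.11, 6.08 and 7.10 against 7.41, 7.09 and 7.41. Rptor-/- array 3 lay within the WT range, and the call was lost when any of 5 arrays was left out singly. Of the 27 measured genes in a wider list of lectin receptors, the same 4 were higher and 1 lower, with a list median of 0.08. That median was -0.08 and the number higher was 1 when genes with a mean under the median gene were left out.

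**Figure D1:**
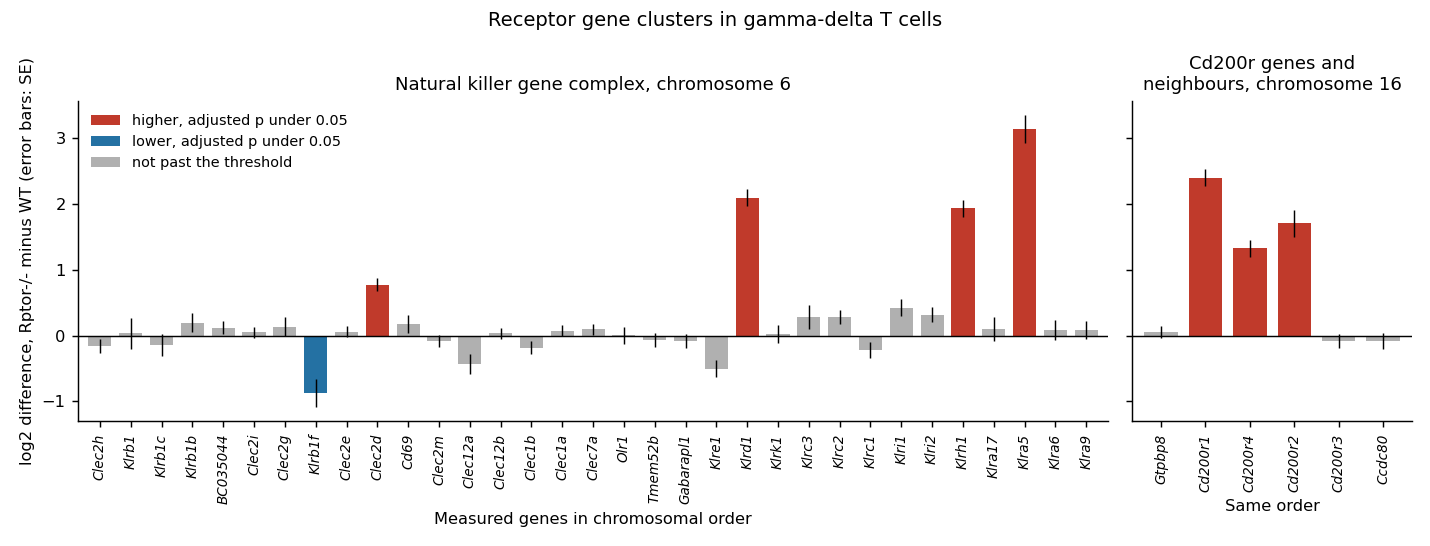
log2 difference (Rptor-/- minus WT) of each measured protein-coding gene of the natural killer gene complex and of the Cd200r genes with 1 neighbour on either side, in chromosomal order, with limma's SE as error bars (3 arrays per genotype). On chromosome 6 Klra5 (3.14), Klrd1 (2.10) and Klrh1 (1.94) stand out, and Clec2d (0.77) and Klrb1f (-0.87) were also called. On chromosome 16 the adjacent genes Cd200r1 (2.40), Cd200r4 (1.33) and Cd200r2 (1.71) all rose.

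In a second cluster, on chromosome 16, 3 of 6 measured genes rose and the others were not called. Cd200r1 encodes the inhibitory receptor for CD200, a membrane protein of many cells. It was at 8.09, 7.85 and 7.56 in Rptor-/- and at 5.60, 5.29 and 5.42 in WT cells, a rise of 2.40 (SE 0.13, adjusted p = 2.67e-07). Its relatives Cd200r4 and Cd200r2 rose by 1.33 (SE 0.13) and 1.71 (SE 0.20), from WT means of 4.24 and 3.94, at or near the range of the Y-linked genes, so these sizes are uncertain too. Cd200r3 was at 4.52 against 4.61 and the flanking genes Gtpbp8 and Ccdc80 differed by 0.05 and -0.09, none of them called. Genes of these receptor families resemble one another, and probes can cross-hybridize, so which family member carried a signal is uncertain. The same holds for Lilrb4a, which has a close neighbour, Lilr4b.

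Among inhibitory receptors and ITAM adaptors as a list, 9 of 33 measured genes rose and 0 fell, against 1.79% and 0.996% of all genes, while the list median was only 0.05. These 9 were called while the other 24 were not, and 4 were called when dim genes were left out. Lilrb4a, an inhibitory receptor with immunoglobulin domains, was at 8.87, 7.84 and 7.99 against 5.66, 5.79 and 5.58, a rise of 2.56 (SE 0.19). Fcer1g, the γ chain that carries ITAM signals for Fc and some natural killer receptors, was at 8.86, 8.77 and 8.51 against 7.29, 6.99 and 6.90. Tyrobp, the gene of the adaptor DAP12, was at 7.13, 7.26 and 7.43 against 6.25, 6.15 and 6.24. Both adaptor genes rose, by 1.65 (SE 0.12) and 1.07 (SE 0.10), with no overlap between genotypes. Cd244a, the 2B4 receptor gene, rose by 1.28, Tigit by 0.76 and Cd160 by 0.70. The checkpoint genes Pdcd1, Lag3 and Ctla4 differed by 0.28, 0.21 and 0.09 and were not called.

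Xcl1, the chemokine that attracts cross-presenting dendritic cells, was at 11.06, 10.80 and 10.82 in Rptor-/- and at 8.71, 8.84 and 8.81 in WT cells. Its rise of 2.11 (SE 0.10, adjusted p = 1.25e-07) had the smallest p of all genes. Ccl5, the chemokine RANTES, was at 11.43, 11.05 and 11.04 against 9.77, 9.26 and 8.72. The WT arrays spread over about 1 unit for Ccl5, but none reached the Rptor-/- values. Of 35 measured type 1 effector and cytotoxic genes, 12 rose and 2 fell, with a list median of 0.12. Smaller rises were those of Crtam (1.15), Cst7 (0.81), Ctsw (0.60), Ifng (0.54), Fasl (0.45) and Tbx21 (0.44), the last encoding the type 1 master regulator T-bet. Ifng was at 6.85, 6.32 and 6.53 against 5.98, 6.04 and 6.05. The granule protease gene Gzma fell by 0.37, from a WT mean of 11.64, and Il12rb2, a chain of the interleukin 12 receptor, by 0.50. Both falls had limma adjusted p just under the threshold (0.0496 and 0.0497), and the call of Gzma was lost when any of 5 arrays was left out singly. Prf1 and Gzmb, the perforin and granzyme B genes, differed by 0.44 and 0.51 and were not called. The number of rising genes in the list was 7 without WT array 2 and 7 without dim genes, 8 without WT array 3 and 8 with only the γδ arrays in the fit.

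In the TNF receptor and ligand list, 7 of 28 measured genes rose and 0 fell, with a median of 0.16. Tnfrsf9, the costimulatory receptor 4-1BB, was at 9.91, 10.09 and 9.95 against 8.55, 8.54 and 8.31, a rise of 1.52 (SE 0.12). Tnfsf8, the CD30 ligand gene, rose by 1.35 (SE 0.14) and Tnfrsf1b, TNF receptor 2, by 0.73. Tnfrsf18 (GITR), Tnfsf10 (TRAIL) and Tnfsf14 (LIGHT) rose by 0.56, 0.53 and 0.45. Among 31 cytokine receptor genes, 5 rose and 1 fell. Kit, the stem cell factor receptor, was at 10.82, 10.78 and 10.94 against 9.88, 9.72 and 9.97. Il2rb, the β chain shared by the interleukin 2 and 15 receptors, rose by 0.52 and Il15ra by 0.50. Without WT arrays 1 and 2, left out singly, the number of rising cytokine receptor genes was 3 and 2.

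Other cell types also express many of these genes, so markers of such cells were read on the same arrays. Of 17 measured natural killer cell markers, 1 was higher (Tyrobp) and 1 lower (Gzma), and the list mean was 6.72 to 6.75 on the Rptor-/- arrays and 6.69 to 6.77 on the WT arrays. Ncr1 and Klrb1c, the NKp46 and NK1.1 genes, were at 5.03 to 5.37 and 4.73 to 5.53, near the DN3a values of 4.95 to 5.31 and 4.57 to 5.07. Of 13 innate lymphoid markers, 3 were higher (Zbtb16, Id2 and Kit) and 0 lower, with a list mean of 8.09 to 8.18 on the Rptor-/- and 7.86 to 8.02 on the WT arrays. The part of such cells in the rises was not tested. Of 21 myeloid, 11 mast cell, 7 erythroid and 16 stromal markers, none was called in either direction by limma, and 5, 1, 2 and 4 had an unadjusted p under 0.05. So had 7 of the 17 natural killer cell markers, 5 of the 13 innate lymphoid markers and 3641 of all 22180 genes. Of 16 B-cell markers 1 was lower (H2-Ob), and of 16 dendritic cell markers 1 was higher (Batf3). In bulk samples a change in the share of a cell subset and a change in RNA per cell cannot be told apart.

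**Figure D2:**
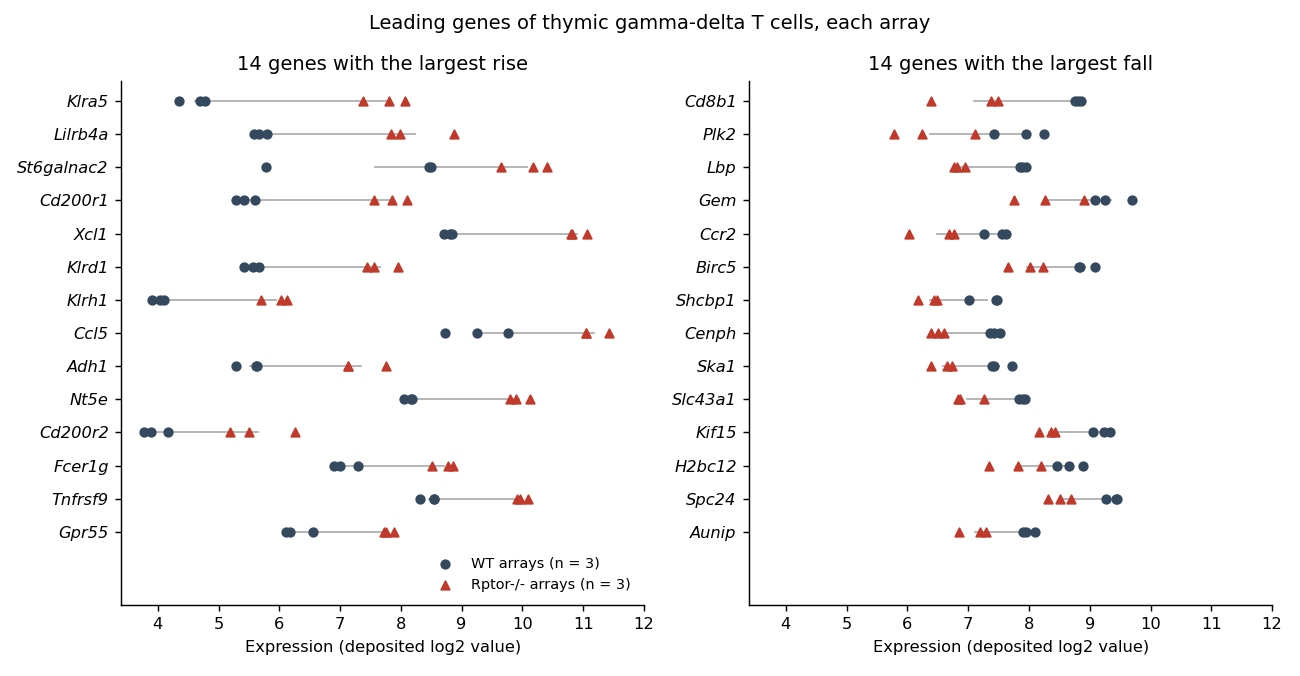
Deposited log2 expression on each of the 6 γδ arrays for the 14 genes with the largest rise and the 14 with the largest fall among called genes whose genotypes do not overlap, triangles for Rptor-/- and circles for WT (3 arrays each); grey lines join the genotype means. Klra5 shows the widest gap, and St6galnac2 has 1 WT array (5.79) far under the other 2.

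Genes tied to γδ lineage choice moved in part. Of 25 measured genes of this list 5 rose (Nt5e, Id2, Zbtb16, Egr2 and Tmem176b) and 1 fell (Cd24a), with a list median of 0.08. When arrays were left out singly, the call of Cd24a was lost with any of 5, that of Egr2 with any of 4 and that of Id2 with either of 2. Nt5e encodes CD73, an ectoenzyme that makes adenosine and marks γδ-committed thymocytes. It was at 10.12, 9.89 and 9.79 in Rptor-/- and at 8.06, 8.17 and 8.19 in WT cells, a rise of 1.80 (SE 0.11, adjusted p = 7.66e-07). Zbtb16, the gene of PLZF, a factor of innate-like T cells, was at 9.64, 9.51 and 9.45 against 8.74, 8.81 and 8.84. Id2, an inhibitor of E proteins, rose by 0.75 (SE 0.15), while its relative Id3 was at 9.84, 9.61 and 9.81 against 10.03, 9.79 and 9.90 and was not called. Sox13 differed by -0.14 and was not called. In the interleukin 17 list, 2 of 24 genes rose (Tmem176b and Lmo4) and 1 fell. That gene was Ccr2, a chemokine receptor, at 6.03, 6.68 and 6.77 against 7.56, 7.27 and 7.63. The call of Lmo4 was lost when any of 4 arrays was left out singly. Il23r, Il1r1, Ccr6, Blk and Il17a differed by -0.18 to 0.21 and were not called. The list median was 0.0044, close to that of all genes.

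Of 29 measured genes of the αβ branch 0 rose and 2 fell (Cd8b1 and Dntt), with a list median of -0.04 and 19 negative differences. Without overlap between genotypes 7 were lower, where 8.79% of all genes were, and 5 higher, where 12.3% were. The list mean was 9.08 to 9.16 on the Rptor-/- arrays and 9.18 to 9.25 on the WT arrays. Cd8b1, the CD8β chain gene, was at 6.39, 7.38 and 7.5 in Rptor-/- and at 8.81, 8.85 and 8.75 in WT cells, a fall of 1.72 (SE 0.24, adjusted p = 0.00171). The WT arrays agreed closely, and Rptor-/- array 1 was the lowest. Cd8a, its partner chain, was at 5.42, 5.14 and 5.44 against 5.58, 5.85 and 6.14 and missed the threshold (adjusted p = 0.0786). Dntt, the terminal transferase gene, fell by 0.52 (SE 0.08). No other gene among the 29 measured of this list was called. In the Notch and DN3 list, 4 of 27 rose (Kit, Dtx1, Mpzl2 and Notch2) and 1 fell (Dntt). The call of Mpzl2 was lost when any of 4 arrays was left out singly, and that of Notch2 with any of 5. Both calls were also lost with only the γδ arrays in the fit, with all 19 arrays and with a replicate block. With the mean of its 2 probe sets Dtx1 lost its call (0.41, adjusted p = 0.0907). Dtx1 and Mpzl2 were called higher in DN3a cells too, where Kit fell and Notch2 was not called. In ISP cells Dtx1 and Notch2 were called higher. The rise of Dtx1 was smaller in γδ than in DN3a cells (difference -0.803, limma adjusted p = 0.0317). For Mpzl2 that difference was -0.963 and missed the threshold (limma adjusted p = 0.0647).

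In a list of immediate early genes and readouts of receptor signal strength, 5 of 30 measured genes rose and 0 fell, with a median of 0.19. Bhlhe40, a transcription factor gene induced in activated T cells, was at 8.11 in Rptor-/- and 7.22 in WT cells on average, with no overlap, a rise of 0.90 (SE 0.09). Fosl2, an AP-1 subunit gene, rose by 0.98 (SE 0.11). Myc, Nfkbia and Egr2 rose by 0.42, 0.32 and 0.44, each with calls lost without 3 or more single arrays. Nr4a1 and Egr1 differed by 0.42 and 0.38 with no overlap between genotypes but were not called, and Cd5 differed by -0.03. The number of rising genes was 2 with only the γδ arrays in the fit, 2 without Rptor-/- array 2 or WT array 3 and 3 without Rptor-/- array 3 or WT array 2. Of 26 genes of proximal receptor signalling 0 were called by limma and 4 had an unadjusted p under 0.05, the smallest adjusted p being that of Ubash3b (0.0887).

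Of the 221 lower genes, 37 were in the lists of S phase and G2/M genes and 184 were not. Of 35 measured S phase genes 23 fell and 0 rose, against 0.996% of all genes falling, and the list median was -0.55. The list mean was 8.45, 8.56 and 8.72 on the Rptor-/- arrays and 9.06, 9.11 and 9.10 on the WT arrays. The genotypes did not overlap in 29 of these genes, where 8.79% of all genes were lower without overlap. Mcm10, a DNA replication factor, was at 7.22, 7.09 and 7.43 against 7.99, 8.17 and 8.15. Cdc6, which licenses replication origins, was at 7.49, 7.69 and 7.97 against 8.61, 8.69 and 8.43. Uhrf1, which keeps DNA methylation through replication, fell by 0.70 (SE 0.09, adjusted p = 9.62e-04) and Tyms, thymidylate synthase, by 0.71 (SE 0.11). Pcna, the sliding clamp, fell by 0.39 (SE 0.07) from a WT mean of 11.81. Helicase subunits Mcm3 and Mcm4 fell by 0.70 and 0.52. The number of falling genes was 11 without WT array 2 and 12 without WT array 3.

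Of 33 measured G2/M genes 14 fell and 0 rose, and the list median was -0.67. All 33 differences were negative and 31 genes showed no overlap. The list mean was 7.90, 8.14 and 8.31 on the Rptor-/- arrays and 8.57, 8.90 and 8.84 on the WT arrays, so WT array 1 was nearer to the Rptor-/- arrays than the other 2. Birc5, which encodes survivin, was at 7.65, 8.01 and 8.23 against 8.83, 8.84 and 9.09. Mki67, the proliferation marker Ki-67, was at 10.37, 10.67 and 10.66 against 11.09, 11.46 and 11.36, a fall of 0.74 (SE 0.15). Ccnb2, the cyclin B2 gene, fell by 0.81 (SE 0.16) and Top2a, topoisomerase IIα, by 0.76 (SE 0.14). Kinetochore genes outside the list also fell, Cenph by 0.93 and Spc24 by 0.88, and the mitotic kinesin gene Kif15 fell by 0.89. These calls depended on single arrays: 5 and 4 G2/M genes were called without Rptor-/- array 1 or 2, and 0 and 2 without WT array 2 or 3. It was 23 after quantile normalization or without dim genes. Without WT array 2 the list still lay lower in Rptor-/- cells, but none of its genes passed limma's threshold. The median difference of the G2/M list was -0.21 in DN3a cells and 0.15 in ISP cells, and that of the S phase list -0.20 and -0.34. In the direct test of γδ against DN3a differences 0 G2/M genes and 1 S phase gene (Uhrf1) were called by limma, beside 0.437% of all genes. Against ISP cells 17 of the 33 G2/M genes were called as lower in γδ cells, where 2.15% of all genes were.

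**Figure D3:**
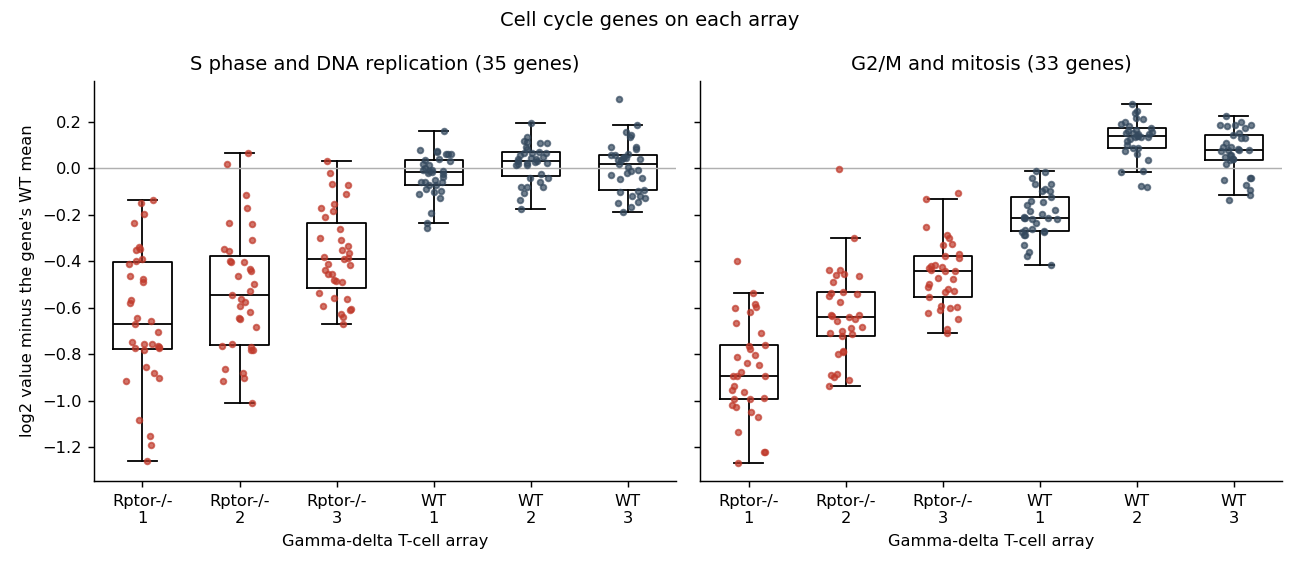
Each point is 1 gene's log2 value on a γδ array minus that gene's mean over the 3 WT arrays, for the S phase list (35 genes) and the G2/M list (33 genes); boxes give medians and quartiles, and whiskers the range without far points. Nearly all points of the 3 Rptor-/- arrays lie under 0, deepest on array 1, and WT array 1 lies under the other WT arrays in the G2/M list.

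Because these genes fell together, the 250 bases before the RefSeq start (GRCm38.p6) of 3 of them were set beside those of 2 genes that rose. These 5 were chosen from 9 windows after their matches were known. The window of Birc5, which fell, holds none of the 3 cell cycle motifs, and those of Klrh1, Nt5e and Fcer1g, which rose, none of the 3 T-cell motifs. Motifs were searched on both strands and are in capitals. In the falling genes these are the E2F site (TTTCCCGC or TTTGGCGC), the CHR element (TTTGAA) and the CCAAT box (CCAAT), known from cell cycle promoters. In the rising genes they are the RUNX site (TGTGGT), the T-box site (AGGTGTGA) and the AP-1 site (TGAGTCA), known from T-cell genes. Matches to the motifs of the other direction were left in lower case. Among the windows shown, that of Klra5, which rose, holds a CHR match on the other strand. The window of Mcm10, which fell, holds a RUNX match. None of the searched letters overlap one another in the hits shown.
Cdc6, chr11:98907901-98908150, plus strand: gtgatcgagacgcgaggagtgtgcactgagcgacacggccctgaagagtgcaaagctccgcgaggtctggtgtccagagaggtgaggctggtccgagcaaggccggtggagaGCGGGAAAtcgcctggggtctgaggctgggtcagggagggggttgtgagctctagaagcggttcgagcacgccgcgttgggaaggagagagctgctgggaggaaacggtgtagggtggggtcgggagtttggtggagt
Mcm10, chr2:5012792-5013041, minus strand: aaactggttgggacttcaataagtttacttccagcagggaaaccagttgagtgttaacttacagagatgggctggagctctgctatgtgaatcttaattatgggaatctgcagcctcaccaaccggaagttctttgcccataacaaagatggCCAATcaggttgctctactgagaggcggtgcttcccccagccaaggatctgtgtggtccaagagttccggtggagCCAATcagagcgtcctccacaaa
Ccnb2, chr9:70421555-70421804, minus strand: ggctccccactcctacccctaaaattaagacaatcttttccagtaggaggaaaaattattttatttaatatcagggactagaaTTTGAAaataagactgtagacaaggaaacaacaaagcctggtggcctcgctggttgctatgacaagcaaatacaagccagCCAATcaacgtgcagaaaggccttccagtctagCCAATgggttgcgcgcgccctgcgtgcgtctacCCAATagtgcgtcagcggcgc
Klra5, chr6:129913225-129913474, minus strand: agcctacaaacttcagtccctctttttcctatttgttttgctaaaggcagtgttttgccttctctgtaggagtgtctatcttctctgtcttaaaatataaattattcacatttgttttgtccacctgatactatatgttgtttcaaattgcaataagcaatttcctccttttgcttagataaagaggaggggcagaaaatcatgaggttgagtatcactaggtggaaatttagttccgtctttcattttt
Xcl1, chr1:164935523-164935772, minus strand: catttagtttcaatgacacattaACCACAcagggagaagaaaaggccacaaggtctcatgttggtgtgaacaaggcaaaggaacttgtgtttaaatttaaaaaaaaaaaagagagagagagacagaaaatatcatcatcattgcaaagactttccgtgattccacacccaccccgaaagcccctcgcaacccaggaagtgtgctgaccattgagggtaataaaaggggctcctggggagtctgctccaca
The Cdc6 window holds 1 E2F match, 138 bases before the start. The Ccnb2 window holds CCAAT boxes 87, 54 and 21 bases before the start and a CHR match 167 bases before it, and the Mcm10 window has CCAAT boxes at 98 and 23 bases. Xcl1 has 1 RUNX match at 227 bases, and in the Klra5 window the letters of the 3 T-cell motifs are not found.

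Over the table, 16990 of the tested genes had 20611 such windows. An E2F match was in 1.73% of them, in 6.15% of the 195 windows of called lower genes and in 1.85% of the 378 windows of called higher genes. A CCAAT box was in 34.8% of all windows, 53.3% of those of lower genes and 30.4% of those of higher genes. A CHR match was in 13.8%, 19.0% and 12.2%. An E2F match was in 19.4% of the 31 windows of the S phase list, and a CHR match and a CCAAT box in 32.1% and 78.6% of the 28 windows of the G2/M list. Outside the 2 cell cycle lists, the windows of lower genes held an E2F match in 4.32% and a CCAAT box in 48.1%. RUNX, T-box and AP-1 matches were in 10.3%, 0.79% and 5.56% of the windows of higher genes, against 12.0%, 0.98% and 4.17% of all windows. A match is a description of the letters and no site of binding.

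Pathways that mTORC1 is known to drive were read next. Of 35 measured MYC targets and ribosome biogenesis genes 1 rose (Myc) and 0 fell, with a median of 0.04. In ISP cells, where 12.4% of all genes were called, 27 of the same 35 genes fell, with a median of -0.45. The direct test called 23 of the 35 differences as higher in γδ than in ISP cells, beside 3.63% of all genes. Of 19 cholesterol synthesis genes 2 fell (Fdps and Insig1) and 0 rose, with a median of -0.0030, whereas 15 fell in ISP cells (median -0.67, beside the same 12.4% of all genes called). The direct test called 12 of the 19 as higher in γδ than in ISP cells, beside the same 3.63% of all genes. Fdps, which makes farnesyl diphosphate, was at 8.64, 8.56 and 8.84 against 9.10, 8.98 and 9.20. The call of Fdps in γδ cells was lost when any of 4 arrays was left out singly, and that of Insig1 with any of the 6. The genotype difference of Fdps was 0.97 higher in γδ than in ISP cells (SE 0.16, adjusted p = 0.0013), a smaller fall in γδ cells on the deposited values. ISP arrays were on another scale, so sizes set against ISP cells are less comparable than directions. For Msmo1, another enzyme of the pathway, the difference between populations was 1.49 (adjusted p = 1.44e-04), and it was not called in γδ cells (0.20).

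Of 18 fatty acid genes 3 fell, Fads2 by 0.70 (SE 0.12), Acss2 by 0.59 and Elovl7 by 0.34. The calls of Acss2 and Elovl7 were each lost when any of 5 arrays was left out singly. Fads2, the Δ6 desaturase gene, was at 7.95, 7.97 and 8.42 against 8.60, 8.98 and 8.85. Of 22 glycolytic genes 4 fell (Tpi1, Pgk1, Gapdh and Pgam1), by 0.56, 0.37, 0.28 and 0.39, and 0 rose. Slc2a1, Hk2 and Ldha, the glucose transporter, hexokinase 2 and lactate dehydrogenase genes, differed by -0.03, -0.12 and -0.10 and were not called. The glycolytic falls were small and none held without each of the 6 arrays. Of 30 ATF4 and amino acid supply genes and of 24 TCA cycle genes 0 were called by limma, with medians of -0.09 and -0.06, and 8 and 3 had an unadjusted p under 0.05. Of 49 genes of oxidative phosphorylation 2 fell (Cycs and Cox5a), beside 0.996% of all genes. The call of Cycs was lost when any of 4 arrays was left out singly, and that of Cox5a with any of 3. Of the 49 differences 45 were negative, with a median of -0.12. Among the 49 genes 26 were lower without overlap, where 8.79% of all genes were. Of the 36 genes of the mTOR complexes and their regulators, Telo2 was higher by 0.37 and Sesn1 lower by 0.47. The call of Telo2 was lost when any of 4 arrays was left out singly, and that of Sesn1 with either of 2. Mtor, Rictor, Mlst8 and Rheb differed by 0.18, -0.03, -0.01 and 0.07 and were not called.

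**Figure D4:**
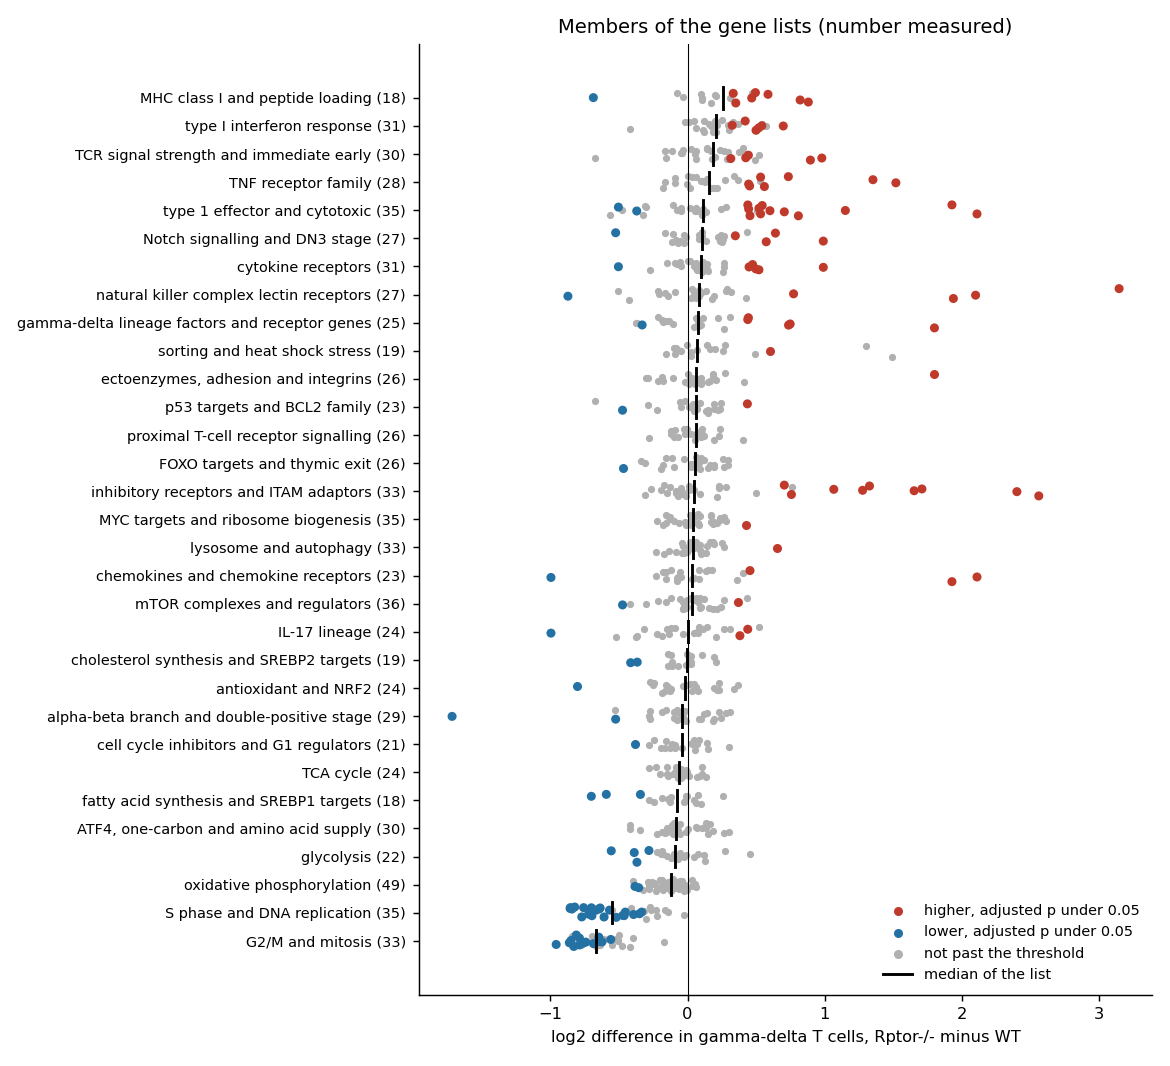
log2 difference (Rptor-/- minus WT) in γδ T cells of every measured member of each gene list, with the number measured in parentheses, called members in colour and the list median as a black bar. The S phase (-0.55) and G2/M (-0.67) lists stand apart on the left, while in the receptor lists single genes rise above small positive medians. That median was 0.05 for inhibitory receptors and ITAM adaptors and 0.16 for the TNF list, in which 23 of 28 differences were positive.

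Of 31 interferon response genes 6 rose and 0 fell, with a median of 0.21, and 29 of the 31 differences were positive. Oasl1, an interferon-induced gene, was at 8.61, 8.56 and 8.5 against 7.83, 8.18 and 7.57. WT array 3 was the lowest, and without it 0 of the 31 genes were called by limma, while 3 were called without Rptor-/- array 2, Rptor-/- array 3 or WT array 2. With only the γδ arrays in the fit 1 gene was called as higher, after quantile normalization 2, and without dim genes or with trended, robust moderation 10. In DN3a cells, where 0.996% of all genes were called, 10 genes of the list rose (median 0.38). Of 18 MHC class I genes 7 rose and 1 fell, with a median of 0.26. Nlrc5, the transactivator of class I genes, was at 10.11, 10.08 and 9.84 against 9.08, 9.06 and 9.25, and its rise of 0.88 (SE 0.12) was called without each single array. H2-M3, a nonclassical class I gene, rose by 0.47 and Tap1, a peptide transporter gene, by 0.33. The class I count was 3 with only the γδ arrays in the fit, 4 without Rptor-/- array 2 or WT array 2 and 2 without WT array 3. H2-Q10 fell by 0.69 (SE 0.16), and its close relatives make the identity of this signal uncertain.

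Other genes were among the largest changes. St6galnac2, a sialyltransferase gene, was at 10.41, 9.65 and 10.17 in Rptor-/- and at 5.79, 8.49 and 8.46 in WT cells. Its rise of 2.50 (SE 0.51, adjusted p = 0.0175) rested in size on WT array 1 and was 1.6 without that array. The call of St6galnac2 was lost with only the γδ arrays in the fit (limma adjusted p = 0.0916) and with trended, robust moderation (0.0845). Gpr55, a receptor for lysolipids, was at 7.73, 7.76 and 7.88 against 6.17, 6.11 and 6.55. Adh1, an alcohol dehydrogenase gene, rose by 1.83 (SE 0.17), or by 0.95 with the mean of its 2 probe sets. Among the falls, Plk2, a polo-like kinase gene induced by stress and growth signals, was at 5.77, 6.25 and 7.11 against 7.43, 7.96 and 8.24. The call of Plk2 was lost with only the γδ arrays in the fit (limma adjusted p = 0.0501). Lbp, the lipopolysaccharide-binding protein gene, was at 6.82, 6.76 and 6.96 against 7.85, 7.95 and 7.88. Slc43a1, a transporter of large neutral amino acids, fell by 0.90 (SE 0.12). The calls of Gem, Birc5, Shcbp1, Ska1 and H2bc12, with falls of 1.04, 0.96, 0.94, 0.92 and 0.88, were lost without at least 3 of the 6 single arrays, and that of Aunip (0.87) without WT array 2.

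The genotype difference of γδ T cells was then tested against that of DN3a cells in the same fit. It differed in 97 genes (0.437%), in 71 (0.32%) as higher in γδ cells and in 26 (0.117%) as lower. The count was 52 to 64 when Rptor-/- array 2 or any WT array of γδ cells, or WT array 1 or 2 of DN3a cells, was left out. Klra5 differed by 3.14 in γδ and by -0.24 in DN3a cells, and the difference between them was 3.39 (SE 0.29, adjusted p = 6.16e-05). Cd200r1, Xcl1, Klrd1 and Klrh1 differed between the populations by 2.55, 2, 2.14 and 2.06, with adjusted p from 1.34e-05 to 6.74e-05. St6galnac2, the gene with the third largest rise among those named, was not called in this test (difference 1.82, SE 0.72, adjusted p = 0.434). Kit went in opposite directions: it rose by 0.99 in γδ cells and fell by 0.73 in DN3a cells (difference 1.72, SE 0.14, adjusted p = 6.16e-05). Of the genes with the smallest p in the other direction, Tnfrsf8, Vwce, Ogdhl and Myof differed by -0.16, -0.19, 0.15 and -0.08 in γδ and by 1.07, 0.85, 1.26 and 0.86 in DN3a cells, called in DN3a and not in γδ cells. Ets2, a transcription factor gene, differed by 0.33, 1.09 and 1.57 in γδ, DN3a and ISP cells. Lbp fell in γδ cells and differed by 0.12 in DN3a cells (difference -1.17, adjusted p = 0.0017).

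Against ISP cells, on the αβ branch, the difference was tested over all 19 arrays, and 1283 genes (5.78%) differed, 806 (3.63%) as higher and 477 (2.15%) as lower in γδ cells. The count was 853 without WT array 3 of γδ cells. Cd200r1, Lilrb4a, Nt5e, Gpr55 and Arhgap20 rose in γδ cells by 1.46 to 2.56 and differed by -0.07 to 0.05 in ISP cells, and each difference between populations passed the threshold. Klra5, Xcl1 and Klrh1 were called higher in ISP cells too, by 0.60, 0.87 and 0.65, so their rise was not confined to γδ cells. In ISP cells Klra5 and Klrh1 had low WT means (2.37 and 2.65). The differences between populations for these genes were 2.54, 1.24 and 1.28 and passed the threshold. Id3, a target of receptor signals, fell by 2.29 in ISP cells and differed by -0.15 in γδ cells (difference 2.13, adjusted p = 9.71e-07). Sidt1, Tox2, Lingo4, Snai3 and Pglyrp2 rose in ISP cells by 1.72, 1.73, 1.16, 1.02 and 1.15, and differed by -0.23, -0.21, -0.21, -0.23 and 0.15 in γδ cells. ISP arrays were on another scale (array medians 3.8 to 3.88), so sizes are less comparable than directions.

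**Figure D5:**
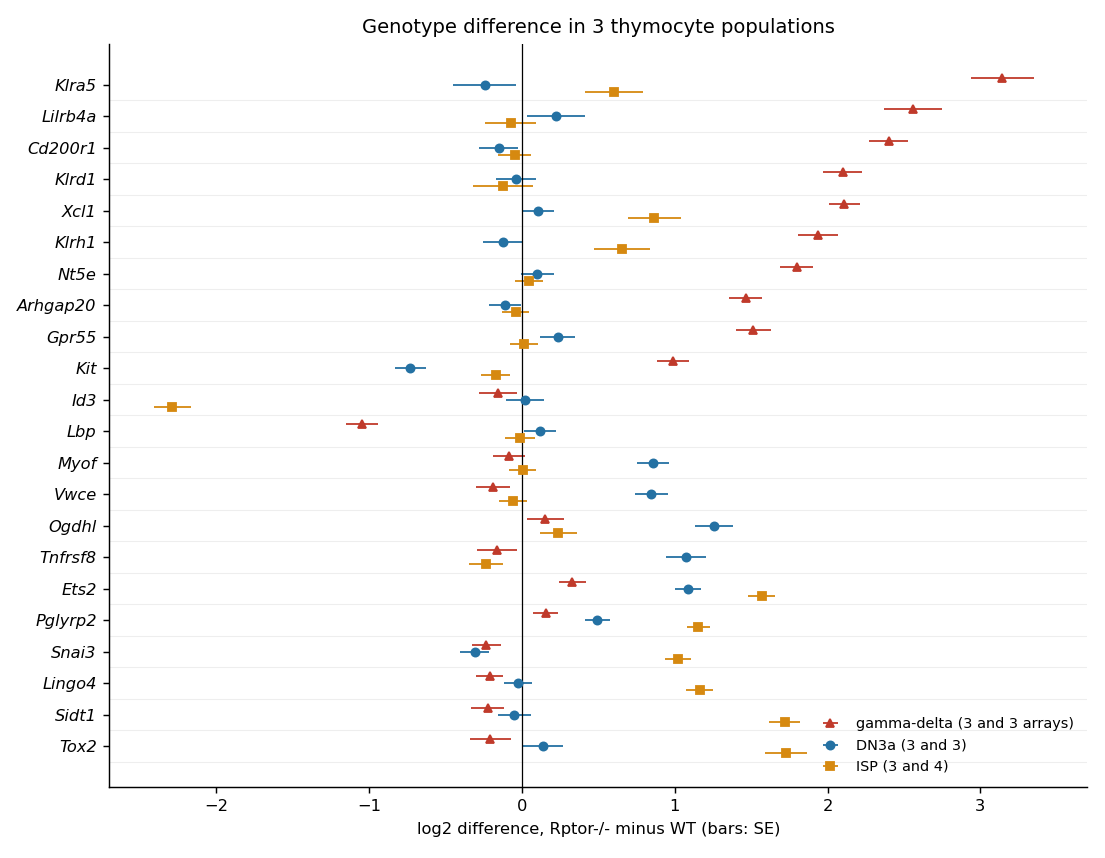
log2 difference (Rptor-/- minus WT) with SE in γδ (3 and 3 arrays), DN3a (3 and 3) and ISP cells (3 Rptor-/- and 4 WT) for the genes with the smallest p for a difference between populations. The receptor and chemokine genes at the top are raised in γδ cells, and Klra5, Xcl1 and Klrh1 were called higher in ISP cells too. Kit goes in opposite directions in γδ (0.99) and DN3a cells (-0.73), and the genes at the bottom are raised in DN3a or ISP cells.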

How the data were processed

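Total RNA of sorted cells was amplified (NuGEN WTA Pico v2), labelled and hybridized to Affymetrix arrays, per the labels' protocols. The authors deposited log2 expression values per probe set, made by RMA in Partek 6.6 per the submitters' processing notes, with ISP arrays on a separate scale. Of 41345 probe sets, 23521 carried 1 gene symbol, 1814 several and 16010 none here. For each gene the probe set with the highest mean over the 12 DN3a and γδ arrays was kept, which left 22180 genes. Symbols of 23328 probe sets were updated by Entrez identifier.

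limma 3.58.1 (R 4.3.3; lmFit, eBayes) fitted 4 group means to these 12 arrays, and 6 group means to all 19 for the comparison with ISP cells. The fit on 12 arrays was tested on simulated data. Figures and counts used Python 3.11.15. Alternatives were other sets of arrays in the fit, scaling, a filter on dim genes, the choice of probe set, moderation, array weights, a replicate block and leaving out each γδ array.

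Members and gene lists were chosen with earlier results of these data known, and lists share genes. Genes were named as the 14 largest rises and 14 largest falls among called genes without overlap, the 6 smallest p-values in each direction per population test, the 5 smallest per list, Rptor and markers. Predicted genes, pseudogenes, small RNA genes, chemosensory receptors and receptor segments were passed over. Other list members are named as examples after their values were seen. Replicate numbers did not pair the γδ samples (correlations of deviations -0.10, -0.0032 and -0.017).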

Additional observations from a re-analysis of the deposited data

Results flagged for a closer look

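The genotype difference was not the same in γδ T cells as in DN3a cells for 97 genes, by limma's test of the difference itself. Among the named genes it was higher in γδ cells, on the log2 scale, for Klra5 by 3.39, Cd200r1 by 2.55, Lilrb4a by 2.34, Klrd1 by 2.14, Klrh1 by 2.06 and Xcl1 by 2. It was also higher for Ccl5 by 1.84, Adh1 by 1.76, Fcer1g by 1.74, Kit by 1.72, Nt5e and Tnfrsf9 by 1.70, Cd200r2 by 1.68 and Gpr55 by 1.28. It was lower in γδ cells for Tnfrsf8 (-1.24), Lbp (-1.17), Ogdhl (-1.10), Vwce (-1.04), Myof (-0.94) and Ets2 (-0.76).

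Against ISP cells the difference was not the same for 1283 genes. It was higher in γδ cells for Lilrb4a by 2.63, Cd200r1 by 2.45, Id3 by 2.13, Nt5e by 1.75, Arhgap20 by 1.51 and Gpr55 by 1.5. It was lower for Sidt1 and Tox2 (both -1.94), Lingo4 (-1.37), Snai3 (-1.26), Ets2 (-1.24) and Pglyrp2 (-1).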

How the results depend on the processing

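The 618 calls became 347 (209 higher, 138 lower) with only the γδ arrays in the fit, 984 (639 and 345) without dim genes and 962 (612 and 350) with trended, robust moderation. Higher genes made up 64.2% of calls, 78.1% after median centring (522 and 146) and 53.7% after quantile normalization (350 and 302). Calls of at least 2-fold numbered 25 without dim genes, and differences from DN3a cells 161 with trended, robust moderation. Rptor passed the threshold with 19 arrays (adjusted p = 0.0489), without dim genes (0.0225) and with trended, robust moderation (0.0139), with a difference of -0.30 in each limma fit. Leaving out single γδ arrays gave 274 to 733 calls (193 to 440 higher, 81 to 293 lower), 40 to 58 of at least 2-fold, 52 to 120 differences from DN3a and 853 to 1241 from ISP cells, and -0.33 to -0.27 for Rptor. Leaving out single ISP arrays gave 915 to 1309 differences from ISP cells. Of the 101 named genes that were called, 52 kept the call without each single array and 62 under each other alternative. A replicate block gave 639 calls (351 higher, 288 lower), and samples shared only a number. With it 31 G2/M genes fell. The median of the lectin receptor list went from 0.08 to -0.08 without dim genes.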

Other observations

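Some genes outside the naming rule had large differences and are given here after their values were seen. Ahr, the aryl hydrocarbon receptor gene, was at 10.61, 10.48 and 10.30 in Rptor-/- and at 9.28, 9.16 and 9.04 in WT γδ cells. Cish, a feedback inhibitor gene of cytokine signalling, was at 8.88, 7.98 and 8.43 against 6.99, 7.02 and 7.01. Both rose with no overlap, by 1.30 and 1.42. Cd274, the PD-L1 gene, rose by 0.88. Nnat differed by 1.47 in γδ, 0.91 in DN3a and 5.53 in ISP cells.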
